A study of Mus musculus with 6 samples.

Results

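The 6 secreted chemokines described here can be made by mouse macrophages, namely Ccl5, Ccl8, Ccl22, Cxcl5, Cxcl9 and Cxcl14. They were chosen by name with earlier results of these data known, and all 6 are among the 714 genes of the deposited table. Messenger RNA was sequenced from bone marrow-derived macrophages, cells grown from flushed C57BL/6 marrow for 6 days in medium with GM-CSF at 10 ng/ml, a growth factor of the myeloid lineage. 3 libraries came from wild-type cells and 3 from Senp8+/- cells, heterozygous for the protease that processes NEDD8 and takes it off its targets. Both genotypes met streptavidin beads carrying CD47, the ligand of the inhibitory receptor SIRPα, and RNA was extracted 24 h later. Cells without CD47 beads were not analysed here, so nothing below separates a response to CD47 from the resting state. No source used here states the kind of Senp8 allele or whether replicates are separate mice or cultures, so the p-values weigh only the scatter among these 6 libraries, part or all of which may be technical. Senp8 was not analysed here either, so the genotype labels rest on the titles alone.

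Chemokines are small secreted proteins that steer leukocytes along gradients by binding receptors with 7 membrane-spanning segments. Their names follow the spacing of conserved cysteines, adjacent in the CC family and parted by a residue in the CXC family. Macrophages make many of them when they sense microbes or cytokines, and the mixture they release sets which leukocytes arrive. Interferon-gamma is the classic inducer of Cxcl9, NF-kB signalling of Ccl5 and Cxcl5, and interleukin-4 of Ccl22 in mouse macrophages.

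The table holds only genes that the authors found to differ between the genotypes, with an unadjusted p of at most 0.0499 and at least a 2-fold difference in either direction. A chemokine is therefore in it because it differed, and the presence of the 6 is no result. Values are normalised counts, reads of a gene divided by 1 size factor per library. A gene is said to have risen or fallen where the authors' deposited table gives it an adjusted p under 0.05. That holds for 295 of the 714 listed genes, 41.3%, and for 2.01% of the 14694 genes in the authors' correction. It holds for all 6 chemokines, 5 of them lower and 1 higher in Senp8+/-. Of the listed genes, 33.9% were called lower and 7.42% higher. The 3 values of one genotype lay outside the range of the other for each of the 6 and for 89.4% of the listed genes, so a gap between the genotypes is common in this table. Sizes and errors come from limma, fitted to log2(normalised count + 1) of all 714 genes, with p-values adjusted over the 14694 genes. On that scale changes of low genes are understated. Only listed genes, selected for differing, entered limma and the count tests below. Their variance estimates rest on these genes, so errors and p-values may be too small and calls too many. limma called 24.6% of the listed genes and 4 of the 6 chemokines, Cxcl9, Ccl5, Ccl8 and Ccl22. Count tests on reads recovered from the values called 25.2% (edgeR) and 32.9% (DESeq2) of the listed genes, and each called all 6. With 3 libraries a genotype, limma's calls changed when single libraries were left out, among the 6 and over all listed genes. An adjusted p also depends on the p-values of other genes, so a lost call need not come from the gene's own values. In limma Ccl5 had -2.09 ± 0.31 (SE; adjusted p = 0.0912) without wild-type replicate 1 and -2.22 ± 0.35 (0.0156) without Senp8+/- replicate 3. Without wild-type replicate 1 limma called 0 of the 6 and 11 of the 714 listed genes. Without Senp8+/- replicate 2 it called 2 of the 6 and 37 of the 714, against 176 with all libraries. Equal medians over the listed genes in place of the deposited scaling would add a median of 0.96 to the log2 fold changes, and 0 of the 6 then changed sign. As 79.7% of the listed genes were lower in Senp8+/-, equal medians over them take out much of that shared fall by construction. This setting shows how calls depend on the scaling and cannot tell which scaling is right.

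**Figure D1:**
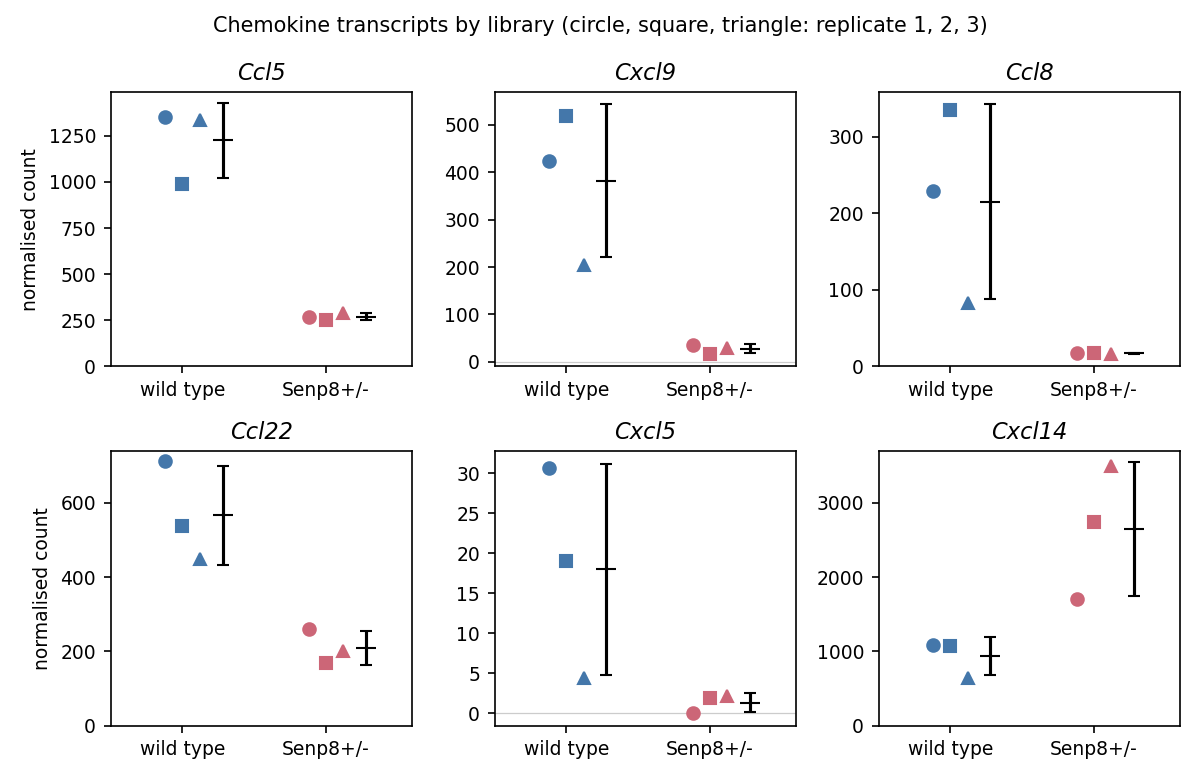
Normalised count (vertical axis, linear) of each chemokine in the 3 wild-type and 3 Senp8+/- libraries. Points are libraries and bars the mean ± SD of 3. The genotypes are separate in each panel, narrowly for Cxcl5, where the lowest wild-type library had 4.37 and the highest Senp8+/- library 2.14. Cxcl14 alone is higher in Senp8+/-.

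Upstream sequence was at hand for 4 of the 6 genes, as the 250 bases before the RefSeq transcription start in GRCm38.p6. It is shown for Cxcl9 and Ccl8, the 2 with the most negative log2 fold changes in limma, and for Cxcl14, the one that rose. Capitals mark matches to the motifs searched.

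Cxcl9: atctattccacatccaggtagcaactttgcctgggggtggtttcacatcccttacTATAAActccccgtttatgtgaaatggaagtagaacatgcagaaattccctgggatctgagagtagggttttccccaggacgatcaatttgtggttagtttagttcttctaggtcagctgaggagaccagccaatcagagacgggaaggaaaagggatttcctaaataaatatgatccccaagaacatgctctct
Ccl8: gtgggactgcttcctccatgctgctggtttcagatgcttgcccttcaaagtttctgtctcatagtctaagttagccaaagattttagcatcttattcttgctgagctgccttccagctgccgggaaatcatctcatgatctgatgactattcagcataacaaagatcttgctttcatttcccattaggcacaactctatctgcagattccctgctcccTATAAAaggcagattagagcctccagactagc
Cxcl14: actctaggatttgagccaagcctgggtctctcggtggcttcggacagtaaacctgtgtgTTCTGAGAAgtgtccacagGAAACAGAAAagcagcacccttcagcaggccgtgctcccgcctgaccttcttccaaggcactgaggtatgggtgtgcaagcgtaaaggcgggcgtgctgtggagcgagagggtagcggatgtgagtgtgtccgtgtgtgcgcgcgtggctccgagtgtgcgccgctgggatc

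The windows are chr5:92328080-92328329 on the minus strand for Cxcl9, chr11:82114935-82115184 on the plus strand for Ccl8 and chr13:56296552-56296801 on the minus strand for Cxcl14, each read in the direction of its gene. The core of the interferon-stimulated response element, GAAA followed after 2 bases by a second GAAA and searched on both strands, matched in Cxcl14, beginning 172 bases before its start, and in 2.97% of 32817 promoter windows of this length. The STAT-binding motif TTCNNNGAA, the same on both strands, matched 191 bases before the Cxcl14 start and in 7.01% of all windows. Neither was found in the windows of Cxcl9, Ccl8 or Ccl22, which says only that these letters are not within them. The NF-kB consensus, searched on both strands, matched in none of the 4 and in 3.90% of all windows. The box TATAAA, searched on the coding strand, began 32 bases before the start of Ccl8 and 195 bases before that of Cxcl9, and was found in 7.60% of all windows. The motifs do not overlap. Base composition also differed, with 16 CG pairs in the Cxcl14 window against 1 in Ccl8, 3 in Cxcl9 and 6 in Ccl22, and a median of 6 over all windows.

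Cxcl9 and Ccl5 attract effector T cells and natural killer cells. Cxcl9 acts through Cxcr3, and Ccl5 also draws monocytes and eosinophils. Cxcl9 (ENSMUSG00000029417, chromosome 5, 92321347 to 92328079 on the minus strand of GRCm38) had normalised counts of 424, 518 and 205 in wild-type replicates 1, 2 and 3. In Senp8+/- replicates 1, 2 and 3 it had 36.0, 16.7 and 30.0. Even the lowest wild-type library was 5.70 times the highest Senp8+/- library, the widest such gap among the 6. Cxcl9 fell 13.9-fold between the means, with a limma log2 fold change of -3.71 ± 0.42 (SE; adjusted p = 0.00106; lower in 3 of 3 libraries). Wild-type replicate 3 was low for the group, and the fall between the means was 17.1-fold without it and 11.4-fold without wild-type replicate 2. Without wild-type replicate 1 limma's adjusted p was 0.0912.

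Ccl5 (ENSMUSG00000035042, chromosome 11, 83525778 to 83530518, minus strand) had 1350, 990.2 and 1336 normalised counts in wild type. The Senp8+/- libraries had 266, 253 and 289. Its replicates lay close together, with a coefficient of variation of 6.83% in Senp8+/- and 16.6% in wild type. The log2 fold change was -2.17 ± 0.27 (SE; limma adjusted p = 0.00168), a fall of 4.55-fold between the means and of 4.32- to 4.99-fold whichever library was left out. limma's adjusted p was 0.0912 without wild-type replicate 1 and 0.0795 under equal medians. In the authors' deposited table Ccl5 ranks 6 by p among the listed genes and 184 by the size of its fall.

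Ccl8 and Ccl22 are CC chemokines of the type 2 and regulatory side of immunity. In mice Ccl8 acts on Ccr8 of type 2 helper T cells, and Ccl22 binds Ccr4, which regulatory and type 2 helper T cells carry. Ccl8 (ENSMUSG00000009185, chromosome 11, 82115185 to 82116799, plus strand) had 229, 335 and 82.1 normalised counts in wild type. It had 17.5, 16.7 and 16.1 in Senp8+/-, where it was the most even of the 6. The wild-type libraries spread widely, with a coefficient of variation of 58.9% against 4.26%. The Senp8+/- values rest on 15 to 18 reads each, whose counting error exceeds 4.26%, so this evenness is no trait of Ccl8. The log2 fold change was -3.39 ± 0.47 (SE; limma adjusted p = 0.00285), a fall of 12.8-fold between the means. The fall was 9.27-fold without wild-type replicate 2 and 16.8-fold without replicate 3, and limma's adjusted p was 0.0729 without Senp8+/- replicate 2 and 0.150 without wild-type replicate 1.

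Ccl22 (ENSMUSG00000031779, chromosome 8, 94745590 to 94751699, plus strand) had 711, 537 and 449 normalised counts in wild type and 259, 167 and 200.3 in Senp8+/-. The groups did not overlap, and the nearest pair of libraries differed 1.73-fold. Its fall of 2.71-fold, log2 fold change -1.43 ± 0.31 (SE; limma adjusted p = 0.0452), was the smallest of the 5 falls. The limma call was lost in 11 of 15 alternatives, among them 5 of the 6 in which a library was left out, while edgeR and DESeq2 on the recovered reads kept it. With the libraries rescaled to equal medians over the listed genes its log2 fold change was -0.42.

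Cxcl5 draws neutrophils through Cxcr2. It was the scarcest of the 6 (ENSMUSG00000029371, chromosome 5, 90759360 to 90761624, plus strand), with 30.7, 19.0 and 4.37 normalised counts in wild type. Senp8+/- replicate 1 had 0 reads, and replicates 2 and 3 had 1.86 and 2.14 normalised counts. The reads behind these values were 54 in the 3 wild-type libraries together (95% Poisson interval 40.6 to 70.5) and 4 in Senp8+/- (1.09 to 10.2), intervals that cover counting error only. Cxcl5 fell by the authors' deposited table, adjusted p = 0.0351. limma put its log2 fold change at -2.85 ± 0.68 (SE; adjusted p = 0.0687), which did not pass. The estimate was -3.60 without wild-type replicate 3, the lowest wild-type library, where it passed at 0.0342, but -2.32 without wild-type replicate 1 (adjusted p = 0.601) and -2.33 without Senp8+/- replicate 1 (0.352). The ratio of the means, 13.5, was 8.76 without wild-type replicate 1. edgeR's quasi-likelihood test on the recovered reads gave it an adjusted p of 0.0413.

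Cxcl14 was the only one of the 6 to rise. It is an old, strongly conserved chemokine made at rest by epithelia and some macrophages, it acts on monocytes, dendritic cells and B cells, and its receptor is less settled than those of the others. It lies on chromosome 13 from 56288643 to 56296551 on the minus strand (ENSMUSG00000021508). Wild-type libraries had 1087, 1075 and 644 normalised counts and Senp8+/- libraries 1703, 2744 and 3495. The lowest Senp8+/- library was 1.57 times the highest wild-type library. The rise between the means was 2.83-fold, and the authors' deposited table gives an adjusted p of 0.00165. In limma the log2 fold change was 1.48 ± 0.33 (SE; adjusted p = 0.0509) and did not pass, whereas edgeR's test gave an adjusted p of 0.0243. Cxcl14 did not pass in limma whichever library was left out. The adjusted p then ran from 0.0627 without Senp8+/- replicate 1 to 0.375 without Senp8+/- replicate 2. By the deposited fold change it ranks 67 among the 145 listed genes that were higher in Senp8+/-.

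**Figure D2:**
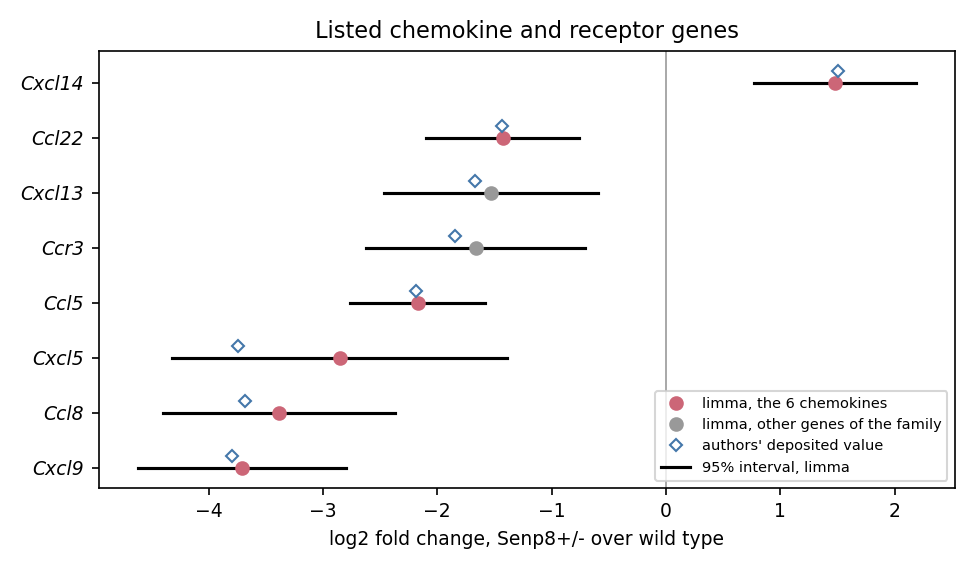
Log2 fold change, Senp8+/- over wild type (horizontal axis), of the 8 listed chemokine and chemokine receptor genes. Filled points and lines are limma estimates with 95% intervals on the log2(normalised count + 1) scale, and open diamonds the values in the authors' deposited table. Cxcl14 lies right of 0 and the others left, with the widest interval for Cxcl5, from -4.32 to -1.39.

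Over the whole family, 7 of 39 chemokines and 1 of 24 receptors were listed. Of these 8 genes, 7 were called, 6 lower and 1 higher, beside 41.3% of all listed genes called, 33.9% lower and 7.42% higher. Their median deposited log2 fold change was -2.01, beside -1.48 over all listed genes. The listed chemokine that is not among the 6 is Cxcl13, which guides B cells through Cxcr5. It fell from 216, 240 and 80.4 normalised counts in wild type to 71.0, 42.8 and 54.6 in Senp8+/- (adjusted p = 0.0150 in the authors' deposited table), with limma's adjusted p at 0.148. Ccr3, the eotaxin receptor of eosinophils and 1 of the receptors of Ccl5, was not called, at 13.9, 25.3 and 14.9 in wild type and 3.09, 6.51 and 5.36 in Senp8+/- (adjusted p = 0.164 in the same table).

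Chemokine genes sit in clusters, and the neighbours of the 6 were not listed. Within 500 kb Ccl8 has 5 other chemokine genes, Ccl5 4, Cxcl5 6, Cxcl9 2 and Ccl22 2, and 0 of these are in the table. They include Cxcl10 and Cxcl11, 18.6 and 31.5 kb from Cxcl9 and ligands of the same receptor Cxcr3. They also include Ccl17, which shares Ccr4 with Ccl22 and lies 58.8 kb from it, and the neutrophil chemokines Cxcl1, Cxcl2 and Cxcl3 near Cxcl5. A gene outside the table missed the p or the fold limit, went untested or is absent for another reason, so no level of these neighbours is known and no contrast with them was tested. No annotated gene in GENCODE M21 overlaps any of the 6.

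Per kilobase, Ccl5 led the 6 transcripts in each wild-type library and Cxcl14 in each Senp8+/- library. Shares are given per kilobase of the gene length in the deposited table, as a percentage of the sum over the 6 within a library, and do not depend on the scaling of libraries. Cxcl14 made up 20.4%, 21.9% and 16.3% in wild type and 68.2%, 80.0% and 81.6% in Senp8+/-. Ccl5 made up 48.3%, 38.4% and 64.2% in wild type and 20.2%, 14.0% and 12.9% in Senp8+/-. The ranges of the 2 genotypes did not overlap for either gene. Without division by gene length Cxcl14 led in wild-type replicate 2 as well, at 30.9% against 28.5% for Ccl5, and the mean Ccl5 share in Senp8+/- was 8.91% in place of 15.7%. These shares describe genes selected for differing between genotypes and carry no test.

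**Figure D3:**
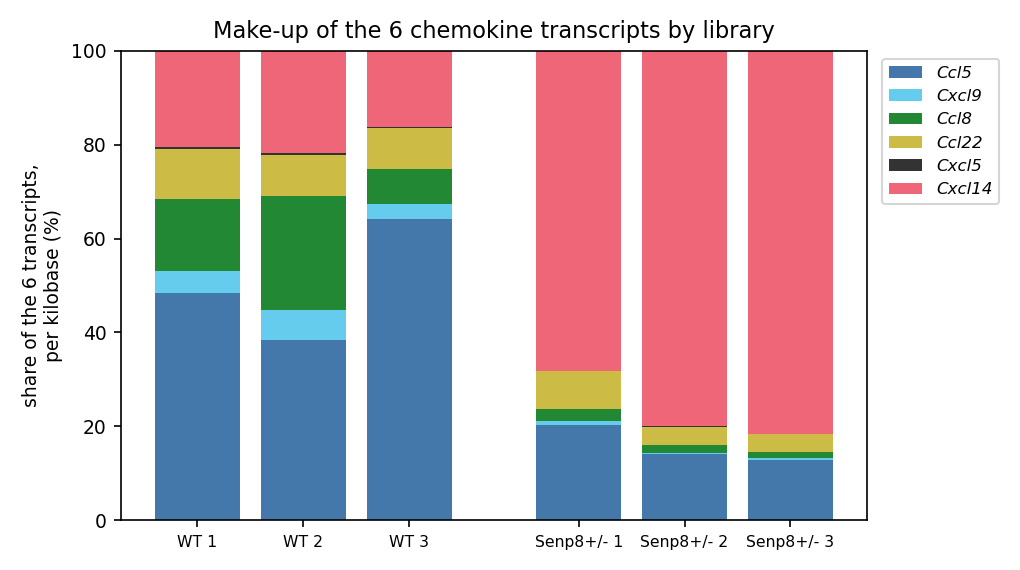
Share of each chemokine in the sum of the 6, per kilobase (vertical axis, percent), as 1 stacked bar per library. Ccl5 is the largest part of each wild-type bar, between 38.4% and 64.2%, and Cxcl14 the largest of each Senp8+/- bar, between 68.2% and 81.6%.

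In levels per kilobase, the order in wild type was Ccl5 at 1276 ± 212 normalised counts per kilobase (SD, n = 3), Cxcl14 at 512 ± 138, Ccl8 at 421 ± 248, Ccl22 at 243 ± 57.3, Cxcl9 at 127 ± 53.2 and Cxcl5 at 9.67 ± 7.08. The values of Cxcl14 and Ccl8 overlapped, as did those of Ccl8 and Ccl22. In Senp8+/- Cxcl14 came first at 1449 ± 493, then Ccl5 at 281 ± 19.2, Ccl22 at 89.9 ± 20.0, Ccl8 at 32.8 ± 1.40, Cxcl9 at 9.15 ± 3.27 and Cxcl5 at 0.716 ± 0.625, with no overlap between neighbours. The sum of the 5 that fell was 2077 ± 251 per kilobase in wild type and 413 ± 33.1 in Senp8+/-. With Cxcl14 added the sums were 2589 ± 381 and 1862 ± 488, and these overlapped, since Senp8+/- replicate 3 had 2343 and wild-type replicate 3 had 2168. Ratios between the genes that fell were not all kept, though none of them was tested. The level of Ccl5 over that of Cxcl9 was 10.0, 6.00 and 20.4 in wild type and 23.2, 47.5 and 30.3 in Senp8+/-, while Ccl8 over Cxcl9 overlapped, from 2.36 to 3.81 and from 2.87 to 5.90.

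Replicates of a genotype varied together for some of the 6. Wild-type replicate 3 had the lowest wild-type value of Cxcl9, Ccl8, Ccl22, Cxcl5 and Cxcl14, but not of Ccl5. It had the lowest value for 43.4% of all listed genes and the highest for 35.2%, so it was not low throughout. Senp8+/- replicate 1 had the lowest Cxcl14 and the highest Ccl22 and Cxcl9 of its group. After the mean of each genotype was subtracted on the log2 scale, Cxcl5 and Cxcl14 had a Pearson r of 0.93 over the 6 libraries. Ccl8 and Cxcl9 had one of 0.79, Ccl22 and Cxcl9 0.77, Ccl8 and Cxcl5 0.69, Ccl5 and Ccl8 -0.65 and Ccl8 and Cxcl14 0.56. The other pairs lay between -0.34 and 0.47. These are descriptions over 6 points that share the size factor of their library, and subtracting genotype means leaves fewer free values than points. Cxcl5 had 0 to 2 reads in each Senp8+/- library, so that part of its r rests on very few reads.

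By the same measure, among 326 listed genes of at least the median level, those most like Ccl8 were Lsp1, a leukocyte actin-binding protein (r = 0.998), the formyl peptide receptor Fpr2 (0.998) and the interferon-inducible membrane protein Ifitm3 (0.995). Lsp1 had 2749, 3258 and 1926 normalised counts in wild type and 907, 901 and 890.2 in Senp8+/-, the same order of libraries as Ccl8. Ccl8 hardly varied in Senp8+/- (17.5, 16.7 and 16.1). Its r values, and its number of genes above 0.9 given below, therefore rest almost wholly on the wild-type libraries. Cxcl9 was most like Arl5c (0.988), Rsph9 (0.983) and the oxygen-sensing hydroxylase Egln3 (0.972). Ccl22 was most like Bcam (0.937) and the complement proteases C1s1 and C1ra (0.922 each). Ccl5 was most like Pald1 (0.930), Pkd1l2 (0.8997) and Clic5 (0.846), and only 1 gene exceeded 0.9, against 42 for Ccl8. For Cxcl5, with 0 to 2 reads in each Senp8+/- library, they were Usp18, the protease that removes ISG15 (0.991), Smpdl3b (0.968) and H2-DMb2 (0.948). For Cxcl14 they were Ly6c2, Rnase6 (0.963 each) and Usp18 (0.949). Usp18 rose in Senp8+/-, like Cxcl14, while Ly6c2 and Rnase6 fell, so likeness within genotypes did not go with the direction of the genotype difference.

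**Figure D4:**
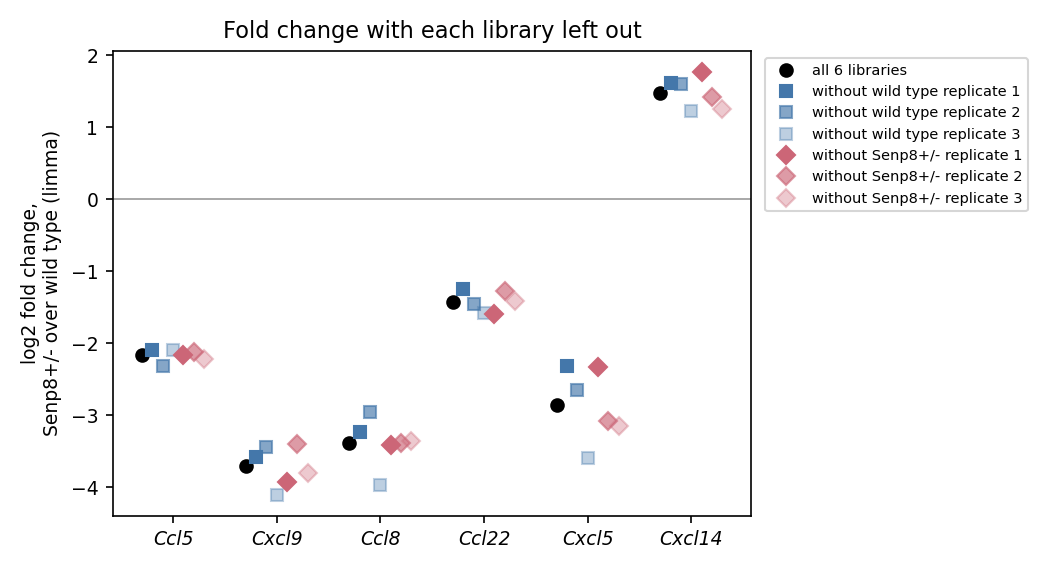
limma log2 fold change of each chemokine (vertical axis, Senp8+/- over wild type) with all 6 libraries and with each library left out in turn. No point crosses 0. Without wild-type replicate 3, Ccl8 moves from -3.39 to -3.97 and Cxcl9 from -3.71 to -4.10, and without wild-type replicate 2 they move to -2.96 and -3.44.

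Other genes of the pathways named above, most of them response genes and not regulators of the chemokines, were read from lists of known members. Of 20 interferon-gamma signalling genes 7 were listed and all 7 fell. Besides Irf1, Gbp3 and Gbp5, these were the GTPase genes Iigp1, Gbp4 and Gbp2 and the MHC class II regulator Ciita. Gbp2 had 10762, 9817 and 7177 normalised counts in wild type and 3356, 1741 and 2647 in Senp8+/-, a gap with no overlap. In wild type Gbp4, Iigp1 and Ciita did not follow Cxcl9, since each was highest in replicate 3, where Cxcl9 was lowest. In wild-type replicates 1, 2 and 3 Gbp4 had 154, 136 and 323, Iigp1 571, 508 and 593 and Ciita 384, 209 and 640. Gbp2, like Cxcl9, was lowest in replicate 3. Of 20 NF-kB and Toll-like receptor response genes 2 were listed, Nos2 and the maturation marker Cd83, and both fell. Cd83 had 1699, 2122 and 1344 in wild type and 1084, 696 and 798 in Senp8+/-. Of 13 interleukin-4 and STAT6 response genes, the side of Ccl22, 4 were listed and all 4 fell. They are the arginase Arg1, Retnla, the ligand Pdcd1lg2 and the lectin Mgl2, the last at 48.5, 65.5 and 35.8 in wild type and 5.15, 14.0 and 22.5 in Senp8+/-. Of 12 proteases that can trim chemokine proteins, the neutrophil protease Prtn3 was the 1 listed, and it fell. Among all listed genes 79.7% were lower in Senp8+/- and 33.9% were called lower, so falls prevail in any list drawn from this table.

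Other cell types can make the same chemokines, and some of their markers were listed. Most markers of each type are not in the table, and those that are entered it because they differed, so their sums differ by selection. Over all listed genes 79.7% were lower in Senp8+/- and 33.9% called lower. In bulk libraries fewer cells of a type and less RNA per cell cannot be told apart. T and NK cells are strong sources of Ccl5. Of 21 of their markers 9 were listed, all lower, and 6 fell. The sum of the 9 ranged from 211 to 295 normalised counts in wild type and from 33.5 to 49.4 in Senp8+/-, where Gzma and Ncr1 had 0 reads. T cell receptor and CD3 genes were not among the 9. Neutrophil markers, 3 of 15 listed and each fell, summed to 1187 to 1566 and 358 to 561, with Retnlg at 0 in Senp8+/-. Csf3r made up nearly all of that sum, at 1147, 1155 and 1553 in wild type and 559, 385 and 357 in Senp8+/-. Monocyte markers, 4 of 10 listed and 3 fell, summed to 953 to 2107 and 337 to 513. Dendritic cells are a source of Ccl22, and 2 of 13 markers, Clec9a and H2-Ab1, were listed and fell. Clec9a had 75.3, 77.1 and 96.1 in wild type and 16.5, 9.30 and 11.8 in Senp8+/-, and the pair summed to 8354 to 14009 and 2752 to 3942. H2-Ab1 made up nearly all of that sum, at 13933, 12628 and 8258 in wild type and 3470, 2743 and 3931 in Senp8+/-. Stromal cells make Cxcl14 and Cxcl5. 9 of 17 stromal and endothelial markers were listed, all lower, 3 fell, and they summed to 723 to 1805 and 397 to 722. The B cell marker Cd79b, 1 of 6 listed and not called, had 25.3 to 46.5 and 10.7 to 12.4. The part of any of these cells in the chemokine values was not tested. Of 14 macrophage markers 4 were listed, all lower, and 2 fell. The receptor Timd4 had 182, 215 and 141 in wild type and 5.15, 5.58 and 9.64 in Senp8+/-, and the scavenger receptor Marco 2089, 1646 and 1159 against 239, 232 and 342. The complement genes C1qa and C1qc were not called and made up most of the sum of the 4, which was 12221 to 26204 in wild type and 8413 to 11956 in Senp8+/-. The other macrophage markers were not analysed here.

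Depth matters mainly for Cxcl5. Each Ccl8 value in Senp8+/- rests on 15 to 18 reads and each Cxcl9 value there on 18 to 35, while Ccl5, Ccl22 and Cxcl14 rest on at least 180 reads in each library. The reads over all listed genes ranged from 205957 to 491156 per library. The full depth is unknown here.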

How the data were processed

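RNA was sequenced from 3 wild-type and 3 Senp8+/- libraries, grouped by their titles, in which KO stands for the heterozygote. The submitters' processing notes name HISAT2 2.0.5 and featureCounts 1.5.0-p3. No source used here names the build, annotation, strand setting or test, so overlapping and antisense reads cannot be told apart. The deposited signal values are read counts divided by a size factor (0.933 to 1.14), made by the authors. All values (100%) were whole multiples of 1 step per library, to 1e-06 of a read, so the reads were recovered. The deposited log2 fold changes, p-values and adjusted p-values are the authors' own. The deposited gene length is in bases. All 6 genes have the same position in GENCODE M21 (GRCm38), as do 687 of the 714 listed genes. Columns of other samples numbered 0.

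Differences were fitted in limma 3.58.1 under R 4.3.3, on log2(value + 1) of all listed genes, with genotype as sole term and an intensity trend in the prior variance. Benjamini-Hochberg adjustment ran over the 14694 genes implied by the deposited adjusted p-values, with unlisted genes taken to have larger p. edgeR 4.0.16 (quasi-likelihood) and DESeq2 1.42.0 were run on recovered reads with the size factors recovered from the deposited values. Fits were tested on simulated data. Alternatives were other pseudocounts, a mean of at least 10, rescaling, no trend, a replicate block, adjustment over listed genes and each library left out. The genes and lists were chosen with earlier results of these data known. Named genes are the 6, other listed chemokines and receptors, up to 4 per other list by smallest deposited p, and per chemokine the 3 listed genes of highest within-genotype r, predicted genes left out. Irf1, Gbp3 and Gbp5, and the unlisted neighbours, were named after values were seen.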

Additional observations from a re-analysis of the deposited data

How the results depend on the processing

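In 89 alternative fits of the 6 chemokines 0 changed sign, 16 lost limma's call at an adjusted p of 0.05 and 10 gained it. Cxcl5 has no value under a mean of at least 10, below which it lies. Ccl22 lost its call in 11 of 15 alternatives, and Cxcl5 and Cxcl14 gained one in 5 each. The number of the 6 called was 4, between 3 and 6 in the alternatives that kept all libraries, and between 0 and 5 with 1 wild-type library left out, for replicates 1 and 3. The 2 left without Senp8+/- replicate 2 were Ccl5 and Cxcl9. Without wild-type replicate 1 the adjusted p of Ccl5 and Cxcl9 was 0.0912, of Ccl8 0.150 and of Ccl22 0.397. Over all listed genes limma called 176, against 295 in the authors' deposited table, 235 by DESeq2, 701 when adjusted over the listed genes alone, and between 11 (without wild-type replicate 1) and 181 with a library left out (in Senp8+/-, 100 without replicate 1, 37 without replicate 2 and 87 without replicate 3; in wild type, 112 without replicate 2). Rescaling to equal listed-gene medians raised log2 fold changes by a median of 0.96 and made 78.3% of the calls higher, against 15.3%. Most listed genes (79.7%) were lower in Senp8+/-, so equal medians over them shift fold changes upward by construction. Under this rescaling Ccl5 had -1.16 and an adjusted p of 0.0795, and Cxcl14 2.49. The Cxcl14 share in wild type was 27.7% when not divided by gene length, against 19.5% ± 2.92 (SD, n = 3), and 18.3% to 21.2% with a library left out. In Senp8+/- it was 74.1% to 80.8%. The replicate block left 174 listed genes and 4 of the 6 called, with Ccl22 lost and Cxcl5 gained. Same-numbered libraries deviated from their genotype means with r of 0.00742, -0.0351 and -0.371. Differently numbered libraries had r from -0.301 to 0.371. Deviations from a mean of 3 are tied to each other, so these values cannot tell whether equal numbers mark shared mice or cultures. The cause of the differences between alternatives was not tested. Counting error limits Cxcl5 most.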
